A study of Mus musculus with 6 samples.

Results

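The telomere genes examined here were 10 genes fixed by symbol, namely Tert, Dkc1, Nop10, Wrap53, Tinf2, Terf1, Terf2, Pot1a, Acd and Rtel1, whose human counterparts are known from inherited marrow failure with short telomeres or from telomere protection. All 10 were present among the 24421 genes of the count table, and all 10 were among the 13411 genes with enough counts to be tested. RNA came from Lin-CD117+ bone marrow cells of CByB6F1 mice, sorted as negative for lineage antigens and positive for CD117 (KIT), which enriches blood stem and progenitor cells. The mice were labelled female and 2 to 5 months old, and no genetic change is named for either group. Pools 1 to 3 came from untreated mice and pools 4 to 6 from mice given ruxolitinib (RUX), which blocks the kinases JAK1 and JAK2 and so the cytokine signals they carry. Each pool joined the cells of 2 to 3 mice of 1 group. Dose and duration of treatment are not given in the sources used.

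Telomerase adds telomere repeats to chromosome ends. Its catalytic protein is TERT, its template lies in the RNA Terc, and dyskerin (Dkc1) and NOP10 belong to the H/ACA proteins that hold Terc stable, while TCAB1 (Wrap53) brings the enzyme to Cajal bodies. Shelterin is the protein cap of the telomere. TRF1 (Terf1) and TRF2 (Terf2) bind the double-stranded repeat, TIN2 (Tinf2) joins them, and TPP1 (Acd) with POT1 covers the single-stranded end and recruits telomerase. Mice have a pair of POT1 genes, Pot1a and Pot1b. RTEL1 is a helicase that opens the telomere loop and helps the replication fork through repeats. In blood formation telomerase activity is known in stem and progenitor cells and is low in most mature cells.

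The template is shown because it is what the enzyme made from these genes copies. In the GENCODE Terc transcript of 423 bases, the longest run that reads as telomere repeat was 9 bases, at positions 28 to 36 (capitals), here with the surrounding positions 1 to 66 written 5′ to 3′ as DNA letters.
Terc: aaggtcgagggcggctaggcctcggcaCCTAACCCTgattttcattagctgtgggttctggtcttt

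Promoter sequence from RefSeq (GRCm38.p6, the same assembly as mm10) was found for 9 of the 10 genes in 11 windows of 300 bases, which run from 250 bases before to 50 after each start; Terf1 had no entry. The 150 bases before the start are shown for the gene with the lowest level, Tert, and for those with the highest levels, Nop10 and Dkc1. Capitals mark matches to GGGCGG or its reverse complement, the GC box.
Tert (chr13:73626761-73626910, plus strand): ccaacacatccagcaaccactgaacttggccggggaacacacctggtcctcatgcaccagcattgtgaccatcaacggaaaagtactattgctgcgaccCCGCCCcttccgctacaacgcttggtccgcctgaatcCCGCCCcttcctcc
Nop10 (chr2:112261776-112261925, plus strand): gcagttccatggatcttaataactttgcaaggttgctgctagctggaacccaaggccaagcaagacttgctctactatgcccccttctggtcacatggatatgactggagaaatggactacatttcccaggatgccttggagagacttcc
Dkc1 (chrX:75095704-75095853, plus strand): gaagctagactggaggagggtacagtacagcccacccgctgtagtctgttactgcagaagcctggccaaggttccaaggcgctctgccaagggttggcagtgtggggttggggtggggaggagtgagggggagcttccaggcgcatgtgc
The Tert stretch held 2 GC boxes and the others 0. Both strands of all 11 windows were searched for 5 motifs, and no matches overlapped. A gene was counted if any of its windows matched, whereas the shares of all promoters count each window singly. The STAT motif TTCNNNGAA was in the windows of 0 of the 9 genes, against 8.3% of 32851 mouse promoters of the same length. The GC box was in those of 4 genes (Tert, Terf2, Pot1a and Rtel1; 35.7% of promoters). The motif CCAAT was in those of 5 (Dkc1, Nop10, Wrap53, Terf2 and Acd; 37.4%), and the E-box CACGTG in 1 (Wrap53; 7.15%). The ETS motif CCGGAAGT was in 0 (3.89%). The Wrap53 matches all lay in its window at chr11:69580201-69580500, outside the counted exons. Its window at chr11:69579200-69579499, which reaches the counted exons, held no match. A match, or the lack of one, only describes the letters in these windows.

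In the deposited mm10 annotation, from first to last exon, Tert lies at chr13:73627001-73649041, Dkc1 at chrX:75095854-75109776, Nop10 at chr2:112261926-112262898 and Rtel1 at chr2:181319724-181356616. Wrap53 lies at chr11:69561754-69579324, Tinf2 at chr14:55679080-55681817, Terf1 at chr1:15805646-15844052 and Pot1a at chr6:25743735-25809226. Acd, at chr8:105698159-105701095, and Terf2, at chr8:107069402-107096545, share a chromosome. Counts cover exons only. Dkc1 shared 44 exon bases (1.57% of its exon length) with Mpp1 on the opposite strand and Acd 7 bases (0.491%) with Rltpr. The other 8 genes shared no exon base with another annotated gene, and this includes Wrap53 beside Trp53.

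Total counted read pairs were 27354768 to 38691826 in the untreated and 46027491 to 48747137 in the RUX pools. Of the summed progenitor markers (Kit, Cd34, Gata2, Myb and Flt3), untreated pools held 1313 to 1887 and RUX pools 1609 to 1794 CPM (depth-normalised counts, with libraries scaled by TMM), and untreated pool 3 was the lowest. Summed T cell markers stayed at 1.57 to 2.38 CPM, B cell markers at 150 to 180 and 116 to 173 CPM, and monocyte markers at 503 to 1020.0 and 391 to 728 CPM in untreated and RUX pools. The sum of the 4 stromal and endothelial markers did not overlap between groups, at 54.8 to 61.0 CPM in untreated and 39.0 to 51.4 CPM in RUX pools. Of all tested genes taken singly, 6.24% did not overlap. Most of it was Pecam1, an adhesion gene that blood cells also express. Its log2 fold change was −0.34 ± 0.15 (SE, edgeR unadjusted p = 0.0396, adjusted p = 0.99988). In edgeR, 1.89% of all tested genes had an unadjusted p under 0.05. Cdh5 and Col1a1 were at or near 0. Neutrophil markers ran from 165 to 2443 CPM in untreated and from 358 to 1534 CPM in RUX pools. All 8 had negative log2 fold changes (median −0.87), with overlap between groups for each and a smallest edgeR unadjusted p of 0.0599. Eosinophil markers reached 234 CPM in untreated pool 3 and 225 CPM in RUX pool 4, with 39.2 to 90.2 CPM elsewhere. On the first principal component (39.7% of the variance), those pools also stood apart from the other 4. Which of these differences bear on the telomere genes was not tested beyond the values given beside the results.

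The 10 genes differed widely in level. In RPKM, which is CPM per kilobase of exon and lets genes of different length be compared, Nop10 was the most abundant at 576 ± 93.7 (mean ± SD over the 6 pools), followed by Dkc1 at 133 ± 6.21 and Acd at 46.9 ± 6.16. Terf1 (20.4 ± 1.47), Pot1a (19.2 ± 2.62), Tinf2 (19.0 ± 2.14) and Wrap53 (17.0 ± 1.70) formed a middle group. Terf2 followed at 11.01 ± 1.48 and Rtel1 at 5.68 ± 1.00, and Tert was last at 0.247 ± 0.148. Each step down from Nop10 to Terf1, and from Wrap53 to Tert, was seen in all 6 pools, without overlap of the ranges. Within the middle group the ranges overlapped, and Pot1a exceeded Tinf2 in 3 of 6 pools. Among all tested genes, the RPKM of Nop10 lay at the 98.9th percentile, that of Dkc1 at the 93.8th and that of Tert at the 8.27th.

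**Figure D1:**
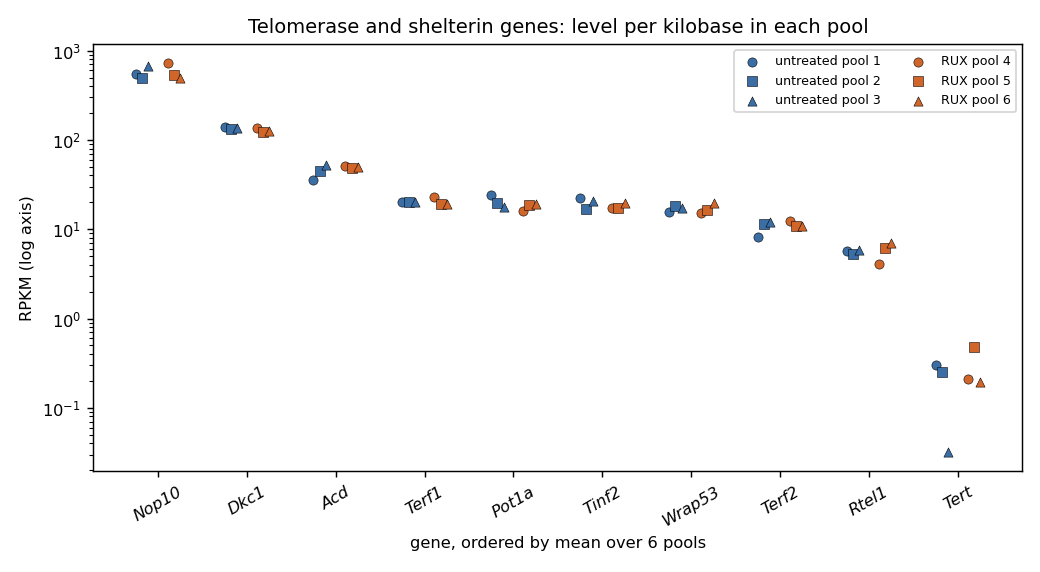
Level of each gene in each pool as RPKM on a log axis, with genes ordered by their mean over 6 pools; blue points are untreated and orange points RUX pools. Nop10 lies between 494 and 719 and Tert between 0.0321 and 0.485, and the groups overlap for every gene.

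The comparison asked whether ruxolitinib changed the RNA level of these genes in normal mice. No gene of the 10 changed by the test: 0 of 10 had an adjusted p under 0.05 in edgeR's quasi-likelihood test, against 0% of all 13411 genes, and DESeq2 and limma-voom also called 0. At an unadjusted p under 0.05 there were again 0 of 10, in edgeR, DESeq2 and limma-voom alike, against 1.89% of all genes in edgeR. For 0 of 10 genes did the 3 RUX pools lie wholly above or below the 3 untreated pools, against 6.24% of all genes. The log2 fold changes (RUX minus untreated) were positive for 6 genes and negative for 4, with a median of 0.03, where all tested genes had a median of −0.004 and 49.2% positive values. The 9 genes other than Tert had log2 fold changes from −0.19 to 0.18. For these 9 the 95% interval lay within a 2-fold change in either direction, as for 80.9% of all genes. The adjusted p from edgeR was 1.00 for each of the 10. In RNA of sorted but mixed cells, fewer cells of a type and less RNA per cell cannot be told apart.

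**Figure D2:**
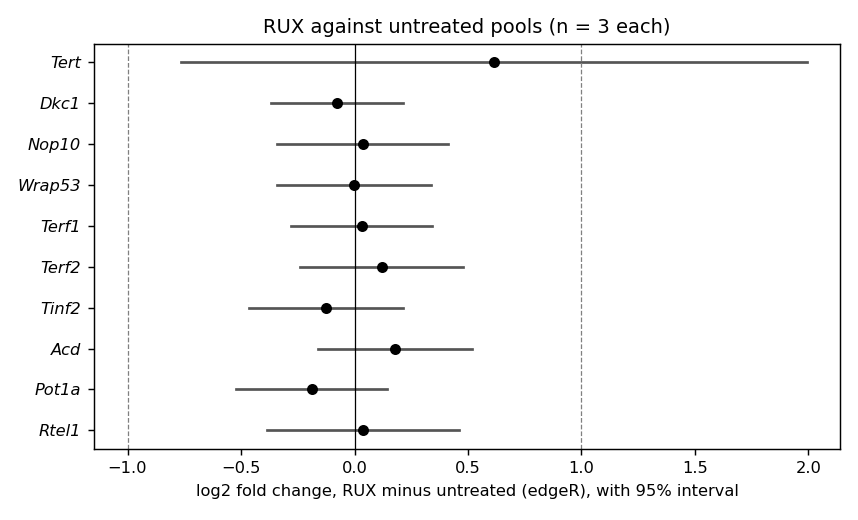
Log2 fold change of each gene, RUX minus untreated (n = 3 pools each), with its 95% interval from the edgeR fit; dashed lines mark a 2-fold change either way. All 10 intervals include 0, and that of Tert, from −0.76 to 1.99, is the widest.

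Among the telomerase genes, Tert, the catalytic subunit, was counted at the lowest level. Untreated pools 1, 2 and 3 held 29, 34 and 4 of its read pairs, whereas RUX pools 4, 5 and 6 held 31, 81 and 34. These counts correspond to 1.04, 0.870 and 0.110 CPM in untreated and 0.718, 1.66 and 0.674 CPM in the RUX group. Untreated pool 3 was low and RUX pool 5 high, while the other 4 pools lay between 0.674 and 1.04 CPM. The exact Poisson 95% intervals, which cover counting error only, were 0.0299 to 0.281 CPM in untreated pool 3 and 1.32 to 2.06 CPM in RUX pool 5, and those of the other 4 pools together ran from 0.467 to 1.49 CPM. The interval of untreated pool 3 lay below all others, and that of RUX pool 5 overlapped only that of untreated pool 1. The means were 0.672 ± 0.494 and 1.02 ± 0.557 CPM (SD, n = 3), a log2 fold change of 0.61 ± 0.64 (SE; edgeR unadjusted p = 0.355). The 95% interval of the fold ran from 0.589 to 3.98. The value rested on these pools, being 0.10 without untreated pool 3, 0.06 without RUX pool 5 and 1.04 without untreated pool 1. Untreated pool 3 was also the lowest of the 6 for Kit, at 196 CPM against 295 to 471 CPM in the others, and for the summed progenitor markers; the part of this in the Tert value was not tested.

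The genes with pool values most like those of Tert, by root mean square difference of centred log2(CPM + 1) over the 6 pools, were Ptprj (0.101), Nol4l (0.113) and Arhgef5 (0.123), of 9912 genes compared. Tert itself varied by 0.377 about its mean on that scale. The added 1 narrows the spread of Tert, at 0.110 to 1.66 CPM, more than that of the compared genes, with means of at least 5 CPM. The 3 genes were picked as the closest of many over 6 pools, with Tert at 4 to 81 read pairs. Whether their likeness exceeds that of a random match was not tested. Terc, the template RNA, was counted at 7, 9 and 10 read pairs in untreated and 15, 21 and 12 in RUX pools, or 0.230 to 0.275 and 0.238 to 0.431 CPM. Its groups overlapped and its log2 fold change was 0.42 ± 0.57 (SE; edgeR unadjusted p = 0.472). The labels name an mRNA kit, and Terc is an RNA without a long poly(A) tail, so these counts are no measure of the Terc pool of the cell.

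Dkc1, the pseudouridine synthase of H/ACA particles, was the steadiest of the 10. It measured 389, 376 and 384 CPM in untreated and 386, 346 and 357 CPM in RUX pools, so the highest pool was 1.12 times the lowest. RUX pools 5 and 6 were below every untreated pool and RUX pool 4 was within their range. The log2 fold change was −0.08 ± 0.14 (SE; edgeR unadjusted p = 0.576), with an interval of the fold from 0.774 to 1.16.

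Nop10, the smallest H/ACA protein, measured 404, 364 and 491 CPM in untreated and 531, 392 and 369 CPM in RUX pools. Its high pools were untreated pool 3 and RUX pool 4, the same pools that were high in eosinophil markers. Summed monocyte markers (1020 and 728 CPM) and the H/ACA gene Nhp2 (348 and 327 CPM) were also highest in these pools. Whether any of these bears on another was not tested. The means of Nop10 were 420 ± 64.7 and 430 ± 87.7 CPM (SD, n = 3) and its log2 fold change was 0.04 ± 0.18 (SE; edgeR unadjusted p = 0.840). Without RUX pool 4 its direction turned, to −0.14, and it was −0.01 without both of these pools. Per length, Nop10 exceeded Dkc1 by 3.68 to 4.86 times in untreated and 3.92 to 5.23 times in RUX pools, with overlap. The remaining H/ACA core genes, Nhp2 and Gar1, stood at 1.92 to 2.53 and 0.858 to 1.46 times Dkc1 per length over the 6 pools.

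Wrap53 measured 29.4, 34.9 and 32.7 CPM in untreated and 28.5, 31.2 and 36.9 CPM in RUX pools. RUX pools held both the lowest and the highest value. The log2 fold change was −0.004 ± 0.16 (SE; edgeR unadjusted p = 0.980), and its sign differed between ways of scaling the libraries (0.01 with DESeq2 size factors), so no direction is given.

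Among the shelterin genes, Terf1 and Terf2 encode the binders of double-stranded repeats. Terf1 measured 45.4, 45.7 and 46.0 CPM in untreated and 52.7, 43.6 and 43.8 CPM in RUX pools. Its untreated pools were within 1 CPM of each other (SD 0.336), and RUX pools lay on both sides of them. The log2 fold change was 0.03 ± 0.14 (SE; edgeR unadjusted p = 0.832), and −0.06 without RUX pool 4. Terf2 measured 32.5, 45.0 and 47.1 CPM in untreated and 49.3, 43.3 and 42.9 CPM in RUX pools. Untreated pool 1 alone was low, and the other 5 pools lay between 42.9 and 49.3 CPM. Its log2 fold change was 0.12 ± 0.17 (SE; edgeR unadjusted p = 0.483) and turned to −0.03 without untreated pool 1. Terf1 was 1.70 to 2.43 times as abundant as Terf2 per length, with the highest ratio in untreated pool 1.

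Acd, which encodes TPP1, showed the same low pool. It measured 50.7, 63.7 and 74.0 CPM in untreated and 73.4, 68.6 and 71.0 CPM in RUX pools. The RUX pools were close together (SD 2.37 against 11.7 in untreated pools) and inside the untreated range. Its log2 fold change of 0.18 ± 0.16 (SE; edgeR unadjusted p = 0.280) was the most positive after Tert; it was 0.04 without untreated pool 1 and 0.31 without untreated pool 3 (unadjusted p = 0.0668). Untreated pool 1 was the shallowest library and had the lowest neutrophil marker sum; the part of either in the low Terf2 and Acd values was not tested.

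Pot1a, which binds the single-stranded end, had the most negative log2 fold change of the 10. It measured 75.4, 61.9 and 56.2 CPM in untreated and 50.9, 58.2 and 60.6 CPM in RUX pools. Here untreated pool 1 was the highest pool, in contrast to Terf2 and Acd, and RUX pool 4 the lowest. Means were 64.5 ± 9.86 and 56.6 ± 5.04 CPM (SD, n = 3), and the log2 fold change was −0.19 ± 0.15 (SE; edgeR unadjusted p = 0.241). The interval of the fold ran from 0.697 to 1.10, and the log2 fold change was −0.06 without untreated pool 1. Its paralog Pot1b was measured at 7.99 to 10.7 CPM with a log2 fold change of 0.07 ± 0.20 (SE; edgeR unadjusted p = 0.741). Per length, Pot1a exceeded Pot1b by 5.83 to 9.30 times in untreated and by 6.09 to 7.07 times in RUX pools, with overlap.

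Tinf2, the bridge of shelterin, measured 38.6, 29.2 and 35.7 CPM in untreated and 30.2, 30.4 and 34.2 CPM in RUX pools. The RUX pools were inside the untreated range. Its log2 fold change was −0.12 ± 0.16 (SE; edgeR unadjusted p = 0.444), with an interval of the fold from 0.725 to 1.16. The value was −0.037 without untreated pool 1 and −0.22 without untreated pool 2. The ratio of Acd to Tinf2 per length was 1.60 in untreated pool 1 and 2.53 to 2.96 in the other 5 pools.

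Rtel1, the helicase, was even in untreated and uneven in RUX pools. It measured 25.2, 23.3 and 26.2 CPM in untreated and 17.98, 27.3 and 31.4 CPM in RUX pools. RUX pool 4 was below and RUX pools 5 and 6 were above all untreated pools, which gave SDs of 1.49 and 6.86 CPM. The log2 fold change was 0.04 ± 0.20 (SE; edgeR unadjusted p = 0.851); it was 0.24 without RUX pool 4, −0.14 without RUX pool 6 and −0.01 without RUX pool 5. The 12 S-phase and proliferation genes summed to 4404, 4862 and 5521 CPM in RUX pools 4, 5 and 6, the same order as Rtel1, and to 4932 to 5040 CPM in untreated pools. Erythroid markers (Klf1, Epor, Car1 and Tfrc) also had their lowest sum in RUX pool 4 (2757 CPM) and their highest in RUX pool 6 (3872 CPM). Most of these sums was Car1 (2298.5 and 3030.2 CPM). Each marker was highest in RUX pool 6, but Klf1 was lowest in untreated pool 1 and Tfrc in untreated pool 3. The rising order of RUX pools 4, 5 and 6 was not particular to Rtel1 and these lists. Wrap53, Tinf2 and Pot1a rose in it too, as did the sums of the TRiC, CST and replication lists described below. Neutrophil (1534, 917 and 358 CPM), monocyte and eosinophil sums fell from RUX pool 4 to 6. The part of any of these lists in the Rtel1 values was not tested.

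Across the 10 genes no pool was high or low throughout. Untreated pool 1 held the highest value for 3 genes (Dkc1, Tinf2 and Pot1a) and the lowest for 2 (Terf2 and Acd). RUX pool 4 held the highest for 3 (Nop10, Terf1 and Terf2) and the lowest for 3 (Wrap53, Pot1a and Rtel1). The summed level of the 10, of which Nop10 and Dkc1 make up most, was 1045 to 1193 CPM in untreated and 1042 to 1220 CPM in RUX pools.

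**Figure D3:**
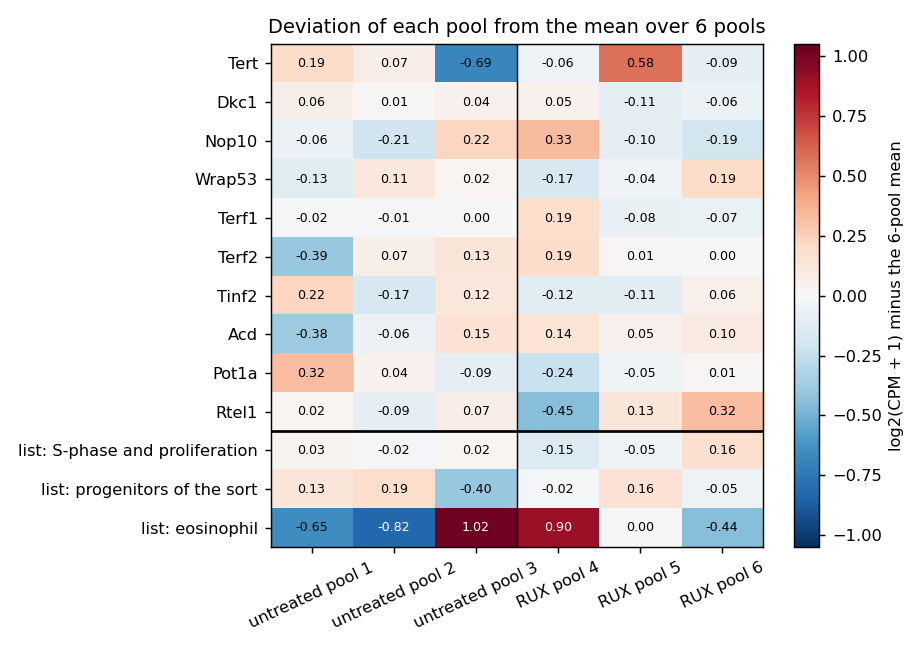
Log2(CPM + 1) of each gene in each pool minus its mean over the 6 pools (columns are pools, red above and blue below the mean), with the mean deviation of 3 marker lists under the line. Tert is lowest in untreated pool 3 (−0.69), Terf2 and Acd in untreated pool 1 (−0.39 and −0.38) and Rtel1 in RUX pool 4 (−0.45).

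The genes that work with these 10 were described from 6 lists with 60 genes, all of them in the table and tested. None was called in edgeR (0 of 60 at an adjusted p under 0.05), against 0% of all genes. An unadjusted p under 0.05 was reached by 0 of 60 in edgeR, DESeq2 or limma-voom. The shares of all genes were 1.89%, 2.1% and 1.95%. In 2 of the 60 the groups did not overlap, Toe1 and Cct6a, both with RUX below, against 3.25% of all genes on that side.

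Of 13 H/ACA and telomerase RNA maturation genes, 6 lay above 0 in log2 fold change and 7 below (median −0.03). Gar1, an H/ACA core protein, measured 151, 238 and 218 CPM in untreated and 256, 204 and 225 CPM in RUX pools, and untreated pool 1 was low. Toe1, a deadenylase that trims small RNAs, measured 52.8, 42.8 and 43.0 CPM in untreated and 36.6, 40.4 and 42.1 CPM in RUX pools. Its log2 fold change was −0.22 ± 0.15 (SE; edgeR unadjusted p = 0.172). The deadenylase Parn, which matures Terc, had a value of −0.21 ± 0.17 (SE) and is named after that value was seen.

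Of the 8 subunits of TRiC, the chaperonin that folds TCAB1, 1 lay above 0 in log2 fold change and 7 below (median −0.09). Cct6a measured 1330, 1039 and 1133 CPM in untreated and 989, 983 and 1024 CPM in RUX pools. Its log2 fold change was −0.23 ± 0.15 (SE; edgeR unadjusted p = 0.149). Cct2 had one of 0.09 ± 0.14 (SE). The deviations of the list did not separate the groups, at −0.09 in untreated pool 2 and in RUX pools 4 and 5 and at 0.15, 0.08 and 0.04 in untreated pools 1 and 3 and RUX pool 6.

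Of the 10 further shelterin and associated genes, 6 lay above 0 in log2 fold change (median 0.05, from −0.14 to 0.16). Dclre1b, the Apollo nuclease that processes leading-strand ends, measured 32.1 to 33.1 CPM in untreated and 32.9 to 41.0 CPM in RUX pools (log2 fold change 0.16 ± 0.15, SE). Zbtb48, a telomere-binding zinc finger gene, measured 7.42 to 8.87 and 7.14 to 7.68 CPM (−0.13 ± 0.19, SE). Of the 7 genes of the CST complex and polymerase alpha-primase, which fill in the complementary strand, 2 lay above 0 (median −0.05). Prim1, the primase catalytic subunit, measured 126 to 184 and 124 to 139 CPM (−0.24 ± 0.16, SE), and the CST subunit gene Ten1 54.0 to 70.8 and 55.8 to 70.2 CPM (0.05 ± 0.16, SE).

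Of 10 telomere replication and chromatin genes, 6 lay above 0 (median 0.02). Rpa3, the smallest subunit of the single-strand binding protein RPA, measured 120 to 169 and 105 to 149 CPM (−0.25 ± 0.17, SE), and Atrx, a chromatin remodeller of repeats, 139 to 201 and 155 to 204 CPM (0.10 ± 0.17, SE). Of the 12 S-phase and proliferation genes 6 lay above 0 (median −0.01, from −0.07 to 0.11). The helicase subunit gene Mcm6 stood at −0.07 ± 0.15 (SE) and the proliferation marker Mki67 at 0.11 ± 0.16 (SE) in log2 fold change. All tested genes had a median of −0.004.

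**Figure D4:**
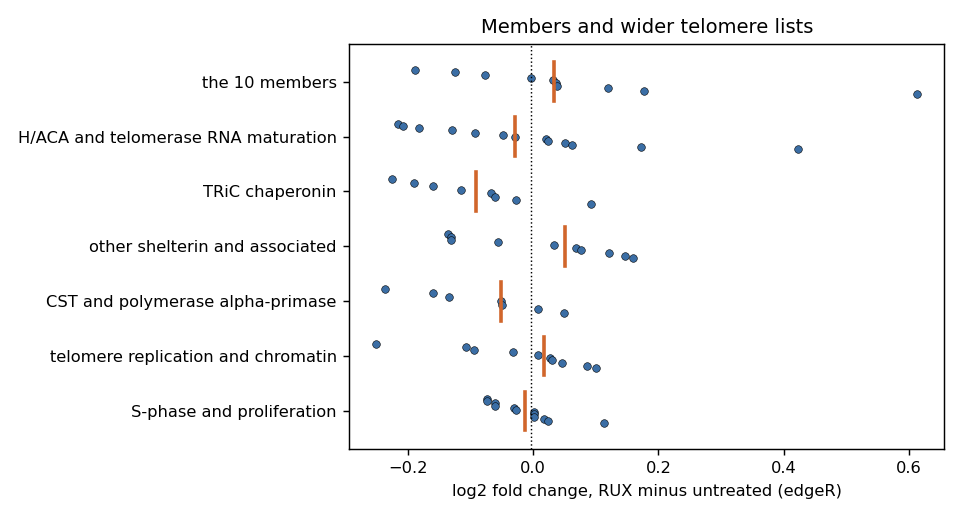
Log2 fold change (RUX minus untreated, edgeR) of each gene in the set of 10 and in 6 lists of genes that work with them; each point is a gene, orange bars are list medians and the dotted line is the median of all tested genes. The medians run from −0.09 for TRiC to 0.05 for the further shelterin genes, and the points farthest to the right are Tert (0.61) and Terc (0.42), both counted at low level.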

How the data were processed

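The kit was SMART-Seq mRNA LP, per the labels' protocols. STAR and mm10 were used for alignment, per the submitters' processing notes. The authors deposited unnormalised read-pair counts for each gene from featureCounts 2.0.3, over UCSC mm10 exons and with no strand or multi-mapping option, per the file headers; antisense reads and near-identical copies are therefore uncertain. The deposited exon length gave RPKM. The members and lists were chosen with earlier results of these data known.

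Columns were matched to pools by library name. edgeR 4.0.16 (R 4.3.3) kept 13411 genes with filterByExpr, scaled by TMM (factors 0.938 to 1.03) and tested treatment by the two-sided quasi-likelihood test, with Benjamini-Hochberg adjustment over all tested genes. The SE is the log2 fold change divided by the root of F. P-values judge the difference between groups against the spread between pools. All pairs of pools, within and across groups, differed by more than sampling noise (chi-square per degree of freedom at least 38.3, without TMM scaling). Totals were 27354768 to 48747137, so 3 counts equal 0.0595 to 0.107 CPM; reads had no stated molecular identifiers.

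All 10 members were named, and of each wider list the gene with the smallest p in each direction; 2 marker genes are not reported here. Alternatives were DESeq2 size factors, upper-quartile scaling, other filters, robust fitting, DESeq2 1.42.0, limma-voom 3.58.1, each pool left out, and untreated pool 3 with RUX pool 4 left out. The edgeR fit was tested on counts simulated with the dispersions it had estimated from these pools. This could not test whether those dispersions hold.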

Additional observations from a re-analysis of the deposited data

How the results depend on the processing

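None of the 10 genes was called, or had an unadjusted p under 0.05, in any of the 14 alternatives; Tert was below the filter of at least 1 CPM in 3 pools and had 13. Over all genes 0 were called in 13 alternatives, and 14 genes were called without a low-count filter, none of them among the 10 or the 60 wider genes. At an edgeR unadjusted p under 0.05, 2 of the 60 wider genes appeared without untreated pool 2 (4.84% of all genes). Without RUX pool 4 it was 1 of the 60 (2.59% of all genes), and in the other alternatives 0. Dkc1, Tinf2, Pot1a, Acd and Tert kept their sign in every alternative run. With untreated pool 3 and RUX pool 4 both left out, values turned for Nop10 (−0.012), Terf1 (−0.056) and Wrap53 (0.088). Wrap53 was also positive with DESeq2 size factors (0.0057), upper-quartile scaling (0.0014), no filter (0.0046) and DESeq2 (0.0056). With 1 pool left out, ranges were −0.14 to 0.16 for Nop10, −0.11 to 0.084 for Wrap53, −0.057 to 0.079 for Terf1, −0.22 to −0.037 for Tinf2, −0.029 to 0.22 for Terf2 and −0.14 to 0.24 for Rtel1. The median of the 10 genes then ran from −0.010 to 0.057, that of the H/ACA list from −0.078 to −0.021 and that of the replication list from −0.080 to 0.082. Like those of the 10 genes and the replication list, those of the S-phase (−0.11 to 0.074) and further shelterin lists (−0.0040 to 0.070) changed sign. Those of the H/ACA, CST (−0.10 to −0.023) and TRiC lists (−0.15 to −0.041) did not. The H/ACA median was 0.026 in the fit that left out 1 pool of each group (3 and 4). The cause of these changes was not tested. The median of all genes ran from −0.011 to 0.010 with 1 pool left out, and was 0.022 without a low-count filter. No paired analysis was possible because the groups share no pool number. Depth limits Tert and Terc, at 4 to 81 and 7 to 21 read pairs per pool.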
